A study of Mus musculus with 2 samples.

Results

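The Mir135 family has 3 genes in the mouse, Mir135a-1, Mir135a-2 and Mir135b, and all 3 were found by their GENCODE M21 names among the 2202 microRNA genes of the count tables. The tables hold microRNA-seq of the left cerebral cortex from 2 female mice of the hybrid strain B6CASTF1/J, a cross that carries C57BL/6J and CAST alleles, at 36 days of age. The labels give no treatment and no second tissue or genotype, so there is 1 group with n = 2 and no comparison between conditions. By the labels the animals carry different numbers and are biological replicates, but they share 1 donor code. Each mouse gave 1 library, so differences between the animals cannot be told apart from differences in library preparation.

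A microRNA is cut from a hairpin transcript, and 1 of its 2 arms or both can be loaded onto an Argonaute protein, where bases 2 to 8, the seed, pair with target messenger RNAs and lower their output. The miR-135 microRNAs are linked to serotonin because they were reported to target the transcripts of the serotonin transporter Slc6a4 and of the receptor Htr1a in raphe neurons. Those neurons have their cell bodies in the brainstem and send axons to the cortex, so cortical tissue holds their fibres but not their cell bodies. In other neurons, miR-135 has been tied to the weakening and shrinking of synaptic spines.

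The mature sequences show how much of each gene could be read apart from its relatives. Given here are 4 mature sequences of the family from RefSeq, with the seed in capitals. The 5p arm of Mir135b, miR-135b-5p, is not among them.
miR-135a-5p (from Mir135a-1 and Mir135a-2): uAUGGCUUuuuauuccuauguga
miR-135a-1-3p (from Mir135a-1): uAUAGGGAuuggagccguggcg
miR-135a-2-3p (from Mir135a-2): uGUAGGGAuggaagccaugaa
miR-135b-3p (from Mir135b): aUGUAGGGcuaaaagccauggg
The 5p arm of both Mir135a genes is 1 and the same sequence of 23 bases. The 3p arms differ. Those of Mir135a-1 and Mir135a-2 were identical at 15 of 22 aligned columns, with no common run longer than 7 bases. Those of Mir135a-1 and Mir135b were identical at 15 of 23, with a longest run of 5. The most alike were those of Mir135a-2 and Mir135b, at 16 of 22 with a run of 8. Each of the 3 listed 3p arms had a seed of its own. The seed letters of miR-135b-3p also stand in miR-135a-2-3p, but 1 base nearer its 5′ end. No other gene of the tables with a listed mature sequence shared any of the 4 seeds.

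The hairpins place these arms in their precursors, and they show the run most like miR-135a-5p, which is in capitals.
Mir135a-1: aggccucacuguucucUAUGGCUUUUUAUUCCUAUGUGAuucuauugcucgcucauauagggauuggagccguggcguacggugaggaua
Mir135a-2: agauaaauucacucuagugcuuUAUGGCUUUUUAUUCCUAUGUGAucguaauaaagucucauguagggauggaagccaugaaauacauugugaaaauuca
Mir135b: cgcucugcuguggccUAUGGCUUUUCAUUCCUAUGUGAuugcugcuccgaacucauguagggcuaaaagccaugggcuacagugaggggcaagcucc
The run in Mir135b matched miR-135a-5p at 22 of 23 bases, with the substitution U11C, counted from 1 at the 5′ end of miR-135a-5p, which lies outside the seed. Its seed letters were those of miR-135a-5p. Over their whole length the hairpins were 67.0% identical between Mir135a-1 and Mir135a-2, 67.6% between Mir135a-1 and Mir135b, and 63.3% between Mir135a-2 and Mir135b.

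The longest run that Mir135a-1 and Mir135a-2 had in common was 24 bases, which is miR-135a-5p and the base after it. A read lying wholly within that run fits both genes equally well. In these tables, reads with several mapping places were not given to any gene, and they made up 50.9% of mapped reads in mouse 1 and 51.2% in mouse 2. The counts of Mir135a-1 and Mir135a-2 therefore leave out any read of miR-135a-5p that fits both, and how many such reads there were cannot be read from the tables. Of the windows of 20 bases in a hairpin, 5 of 71 in Mir135a-1 and 5 of 81 in Mir135a-2 stood in the other gene as well, and none of 78 in Mir135b stood in any other annotated microRNA hairpin on either strand. With Mir135b the longest common runs were 14 bases for Mir135a-1 and 13 for Mir135a-2. Among all 2202 genes, 51.5% had at least 1 such shared window. Matches elsewhere in the genome were not searched.

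**Figure D1:**
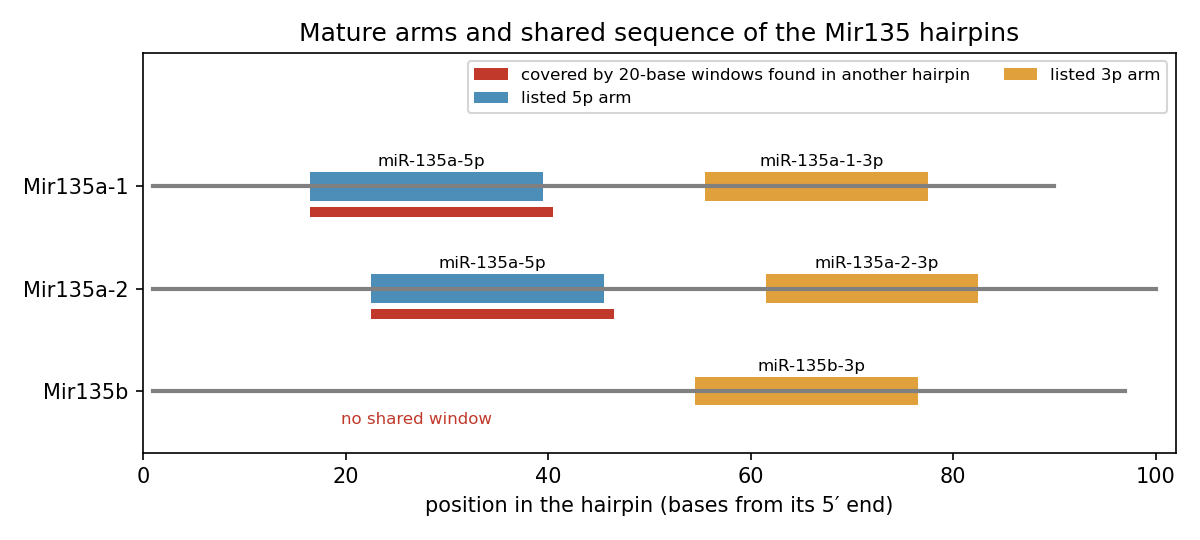
Hairpins of the 3 Mir135 genes, drawn by position in bases from the 5′ end, with the mature arms that RefSeq lists (blue for 5p, orange for 3p) and the bases covered by windows of 20 bases found in another annotated hairpin (red). The red bar spans bases 17 to 40 of Mir135a-1 and 23 to 46 of Mir135a-2, the whole 5p arm, and Mir135b, whose 5p arm is not drawn, has none.

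The 3 genes lie on different chromosomes of mm10, and each is inside another gene. Mir135a-1 (ENSMUSG00000065407.1) is on the plus strand of chromosome 9, from 106154124 to 106154213. It lies in an intron of the non-coding gene D030055H07Rik on the same strand and over an exon of the glycerate kinase gene Glyctk on the opposite strand. Mir135a-2 (ENSMUSG00000065524.1) is on the minus strand of chromosome 10, from 92072086 to 92072185. It lies in an intron of Rmst, a long non-coding RNA known from neuronal differentiation. Mir135b (ENSMUSG00000065435.1) is on the plus strand of chromosome 1, from 132198088 to 132198184. It lies in an intron of the protein-coding gene Lemd1 and of the overlapping gene AC124108.1. Host transcripts were not measured in these libraries.

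All 3 genes were read in the cortex of both mice at low to moderate levels, and Mir135b was the highest of them by uniquely placed reads. Levels are in CPM, a gene's sense-strand counts scaled to 1000000 of the library's total, which was 1930234 in mouse 1 and 1863876 in mouse 2. Intervals are 95% Clopper-Pearson intervals and cover the counting error of reads only, not differences between animals or library preparations. PCR copies count as reads, so the intervals may be too narrow. Detection meant reaching 10 CPM in each mouse. That held for 3 of 3 Mir135 genes, beside 13.8% of all 2202 genes and 25.6% of the 1174 genes with a Mir symbol. The call depends on the scale: scaled to all reads of the library, unmapped ones and those at several places included, only Mir135b reached 10 in each mouse (14.5 and 68.4), beside 11.2% of all genes.

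The counts of Mir135b were 103 (mouse 1) and 428 (mouse 2), which is 53.4 CPM (43.6 to 64.7) and 230 CPM (208 to 252). Its mean was 141 ± 125 CPM (SD, n = 2), rank 191 among the 2202 genes, and the intervals of the mice lay far apart. Mir135a-2 had 62 and 33 counts, or 32.1 CPM (24.6 to 41.2) in mouse 1 and 17.7 CPM (12.2 to 24.9) in mouse 2. It was the higher of the Mir135a genes in each mouse, at a mean of 24.9 ± 10.2 CPM (SD, n = 2) and rank 272. For Mir135a-1 the counts were 43 and 24, or 22.3 CPM (16.1 to 30.0) and 12.9 CPM (8.25 to 19.2). Its mean was 17.6 ± 6.65 CPM (SD, n = 2), rank 290, and in mouse 2 its interval reached below the detection limit of 10 CPM. For scale, the 304 detected genes had a median level of 326 CPM and a lower quartile of 60.6 CPM, so both Mir135a genes stood below that quartile. None of the 3 genes had a count on the opposite strand in either mouse, and the unstranded counts were the same as the sense counts.

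**Figure D2:**
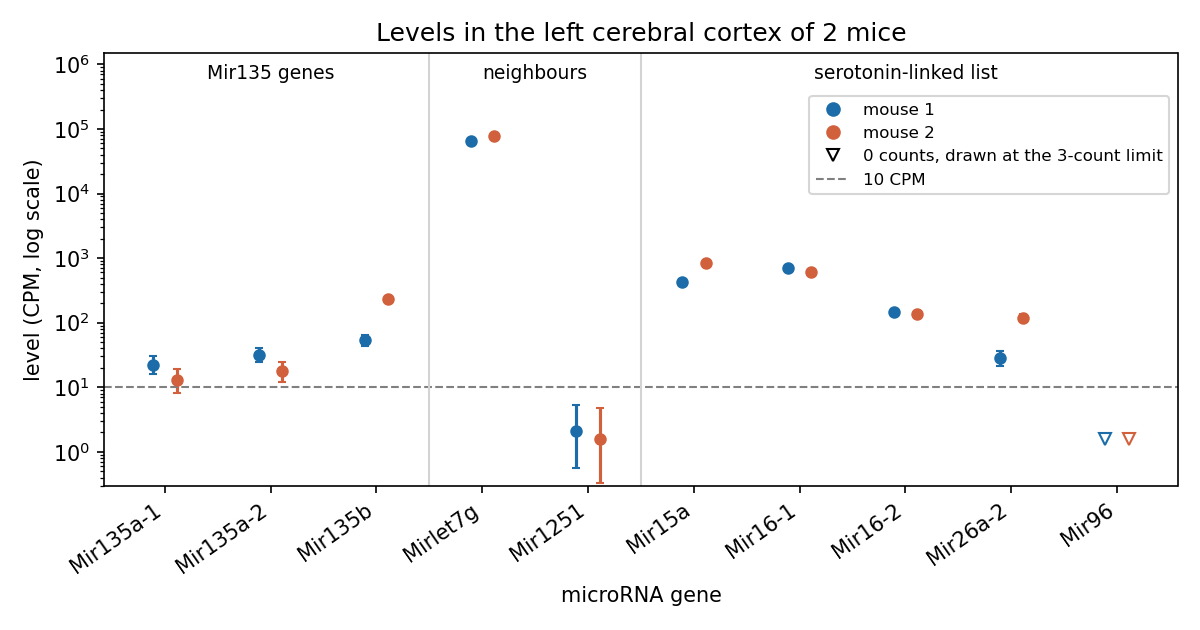
Levels in CPM on a log axis for the 3 Mir135 genes, the microRNA genes within 100 kb of them and the serotonin-linked list, with 1 point a mouse (blue mouse 1, orange mouse 2) and 95% counting intervals. Mir135b stands higher in mouse 2 (230 CPM) than in mouse 1 (53.4 CPM), both Mir135a genes stand lower in mouse 2, and Mir96 had 0 counts in both mice.

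The make-up of the family differed between the mice. The 3 genes together had 208 counts in mouse 1 and 485 in mouse 2, or 108 and 260.2 CPM. Mir135b held 49.5% of the family's counts in mouse 1 (42.5% to 56.5%) and 88.2% in mouse 2 (85.0% to 91.0%), and these intervals did not overlap. Mir135a-1 held 20.7% (15.4% to 26.8%) and 4.95% (3.20% to 7.27%). Mir135a-2 held 29.8% (23.7% to 36.5%) and 6.80% (4.73% to 9.42%). Shares within a library do not depend on how the libraries are scaled to each other. They hold the uniquely placed reads alone, so they are not the shares of miR-135a and miR-135b in the tissue.

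The order of the levels was the same in both mice, with Mir135b first, Mir135a-2 second and Mir135a-1 last, but the last 2 did not differ beyond counting error. Order and ratios are those of uniquely placed reads, which leave out miR-135a-5p reads that fit both Mir135a genes. The count ratio of Mir135a-2 to Mir135a-1 was 1.44 in mouse 1 (0.962 to 2.18) and 1.38 in mouse 2 (0.788 to 2.43), so both intervals held a ratio of 1. Per base of hairpin these ratios were 1.30 and 1.24. That scaling is descriptive only, since the listed mature arms have 21 to 23 bases whatever the hairpin length. Mir135b over Mir135a-2 was 1.66 in mouse 1 (1.20 to 2.31) and 13.0 in mouse 2 (9.09 to 19.1), or 1.71 and 13.4 per base of hairpin. Mir135b over Mir135a-1 was 2.40 (1.66 to 3.50) and 17.8 (11.8 to 28.1), or 2.22 and 16.5 per base. Both ratios to Mir135b thus differed between the mice by more than counting error, while the ratio between the Mir135a genes did not show such a difference.

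**Figure D3:**
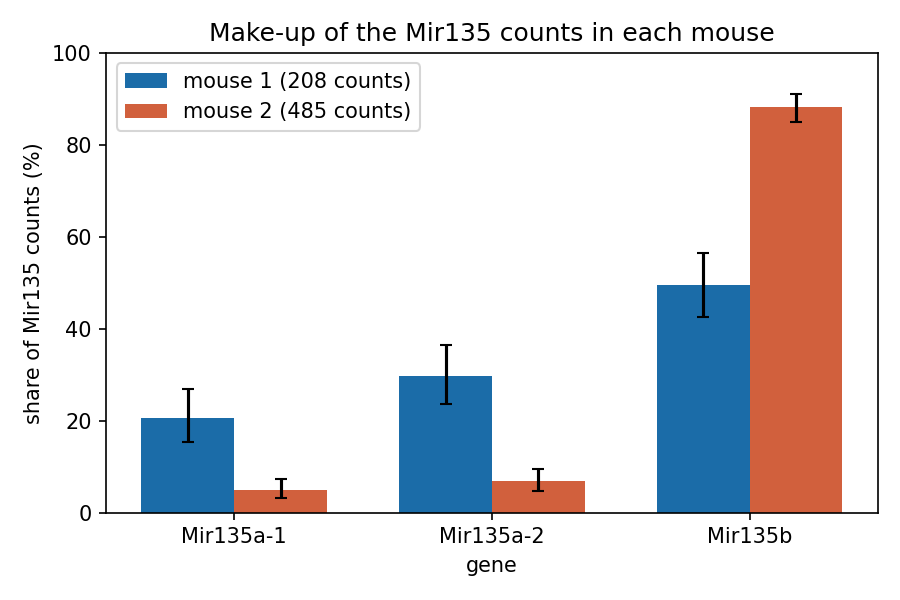
Share of the family's counts held by each Mir135 gene, in percent, with bars for mouse 1 (blue, of 208 counts) and mouse 2 (orange, of 485 counts) and 95% Clopper-Pearson intervals. Mir135b holds 49.5% in mouse 1 and 88.2% in mouse 2.

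Set against the whole table, Mir135b was among the genes furthest apart between the mice and the Mir135a genes were not past 2-fold. The log2 ratio of mouse 2 over mouse 1, on TMM library sizes, was 2.06 for Mir135b (1.74 to 2.38), or 4.16-fold higher in mouse 2. In the two-sided exact binomial test its Benjamini-Hochberg adjusted p was 9.8e-48, and by size of ratio it was rank 12 of the 324 genes tested. Mir135a-2 was lower in mouse 2, with a log2 ratio of −0.91 (−1.56 to −0.28) and an adjusted p of 0.00586 in the same exact test. Mir135a-1 was lower too, at −0.84 (−1.62 to −0.09) with an adjusted p of 0.0372 by the exact test. Neither reached 2-fold, and the interval of Mir135b overlapped neither of theirs. After correction for a linear dependence of the ratios on hairpin GC content, Mir135a-2 passed both thresholds at −1.32. Without a filter on low counts, the adjusted p of Mir135a-1 in the exact test was 0.0793.

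This test weighs a pair of libraries against counting error, and no condition enters it. At an adjusted p under 0.05 and at least 2-fold, 1 of 3 Mir135 genes was called apart, beside 19.4% of the 324 genes tested. That gene was Mir135b, called higher in mouse 2, beside 14.2% of the genes tested, and 0 of 3 were called higher in mouse 1, beside 5.25%. At an adjusted p under 0.05 and any fold, 3 of 3 passed, beside 74.7% of all genes tested, and 2 of 3 were higher in mouse 1, beside 36.7%. The median size of the log2 ratio over the 324 genes was 0.53, so Mir135b lay well beyond the usual distance between these mice. The point estimates of both Mir135a genes lay beyond that median too, at ranks 76 and 94 by size. Their counting intervals also held sizes below it.

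**Figure D4:**
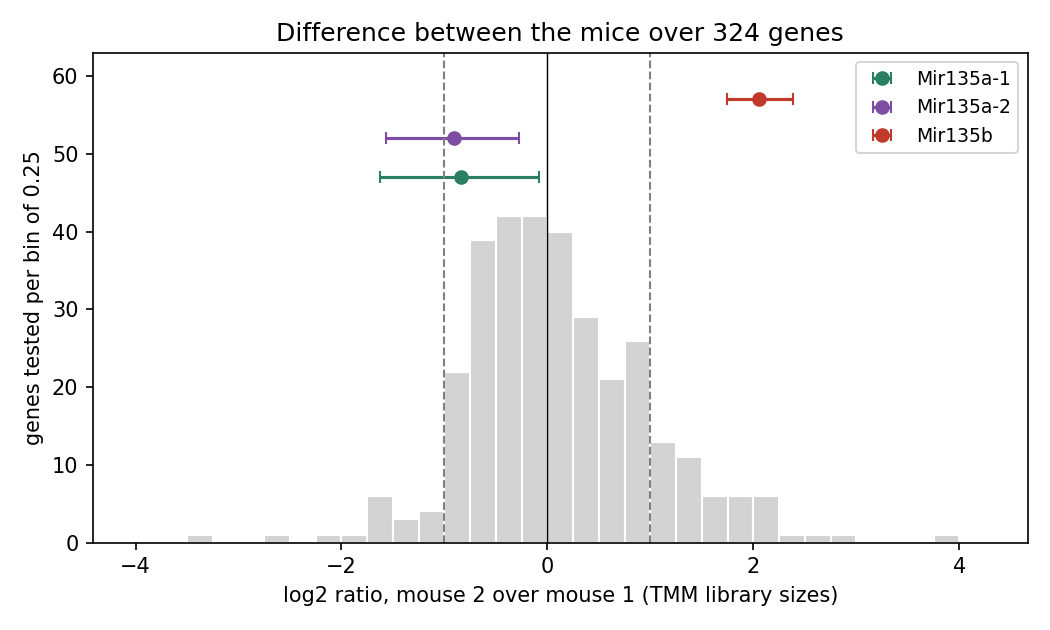
Log2 ratio of mouse 2 over mouse 1 for the 324 genes tested (grey bars, genes per bin of 0.25), with the 3 Mir135 genes above as points with 95% counting intervals and dashed lines at 2-fold. Mir135b lies at 2.06, and Mir135a-1 (−0.84) and Mir135a-2 (−0.91) lie on the other side of 0.

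Marker microRNAs of cell types also differed between the mice. The tissue label was checked with a list of 8 neuronal genes, of which 5 were detected, at a summed 56732 CPM in mouse 1 and 92663 CPM in mouse 2. Most of that difference was Mir132 (29894 and 64860 CPM). The log2 ratios of the other detected neuronal genes were 0.45 for Mir138-1, 0.03 for Mir128-1, −0.22 for Mir128-2 and −0.60 for Mir138-2, and the 3 Mir124a copies had 1 to 4 counts each. Reads that fit several copies were given to no gene, so such low counts do not show that a microRNA was scarce. The summed markers of oligodendrocytes were higher in mouse 2 (2 of 2 detected, 2746 and 5119 CPM). So were those of endothelium (1 of 1, 11276 and 22380 CPM) and mural cells (2 of 2, 4589 and 9464 CPM). The summed erythroid markers were lower in mouse 2 (2 of 2, 712 and 128 CPM). Among the 324 genes tested, 162 were higher in mouse 2 and 162 lower, so sharing a direction with a Mir135 gene is common. The leukocyte markers (2 of 4 detected, with 3 of the 4 matched, summed 1585 and 1412 CPM) went both ways, with Mir150 at 1531 and 1263 CPM, Mir142 at 48.2 and 137 CPM and Mir223 at 5.70 and 11.8 CPM. So did those of choroid plexus and epithelium (4 of 4, summed 738 and 680 CPM), with log2 ratios of −1.89 for Mir200b, −0.75 for Mir200a, −0.03 for Mir204 and 0.40 for Mir429. Muscle (1 of 5 detected, 38.3 and 25.8 CPM, with Mir1a-1, Mir133a-1 and Mir133a-2 at 0) and liver (1 of 1, 45.6 and 40.2 CPM) were low in both. The low counts of muscle genes with copies carry the same limit, since reads that fit several copies were given to no gene. The part of any of the listed cell types in the Mir135 values was not tested.

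The microRNA genes beside the Mir135a genes stood at quite different levels. Mirlet7g, a let-7 gene on the same strand 24.6 kb from Mir135a-1, was read at 125866 and 145806 counts in mice 1 and 2, or 65208 and 78227 CPM, next to 43 and 24 counts for Mir135a-1. Its log2 ratio was 0.21, against −0.84 for Mir135a-1, so the neighbours lay on opposite sides of 0. Mir1251, which lies 65.0 kb from Mir135a-2 on the same strand, had 4 and 3 counts. At this depth it stayed under the detection limit, at 2.07 and 1.61 CPM. No other microRNA gene of the tables lay within 100 kb of Mir135a-1 or Mir135a-2, and none lay within that distance of Mir135b.

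A list of 5 other microRNA genes reported to act on serotonin transporter or receptor transcripts gave a frame for these levels. In it 4 of 5 genes were detected, beside 13.8% of all genes and 25.6% of genes with a Mir symbol. The median over the 5 was 141 CPM, above the 0.518 CPM over all genes with a Mir symbol. It was below the 326 CPM over the 304 detected genes. Mir16-1 and Mir16-2, which give the transporter-directed miR-16, had 1343 and 1149 counts and 284 and 250 counts in mice 1 and 2. Both genes share 1 of their 2 listed mature sequences, so these counts leave out reads that fit both. Their log2 ratios were −0.22 and −0.18. Mir15a, which lies beside Mir16-1 and shares its seed family, had 825 and 1546 counts (log2 ratio 0.91). Mir26a-2 had 54 and 223 counts, and its log2 ratio of 2.05 was close to that of Mir135b. A mature sequence of Mir26a-2 is shared with Mir26a-1, which is not on the list and had a log2 ratio of 2.88. Reads that fit both Mir26a genes are left out here. Mir26a-2 was the 1 of 4 tested list genes called apart, beside 19.4% of all genes tested. The median log2 ratio of the 4 was 0.36, beside −0.0038 over the 324 genes. The Mir16 genes lay below 0 and Mir15a and Mir26a-2 above it, so that median shows no common direction. Mir96, reported to act on a serotonin receptor transcript, had 0 counts in both mice, so that levels up to 1.55 CPM (mouse 1) and 1.61 CPM (mouse 2) remain possible. By mean level Mir135b (141 CPM) was next to Mir16-2 (141 ± 9.19 CPM), but it varied far more between the mice.

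The genes nearest to each member in level over both mice were found by Euclidean distance in log2(CPM + 1), over 2 samples only. Nearest to Mir135b were Mir410 (distance 0.44), Mir376b (0.53) and Mir142 (0.76). Mir410 had 71.5 CPM in mouse 1 and 255 CPM in mouse 2. Nearest to Mir135a-1 were Mir3070b (0.06), Mir200a (0.06) and Mir504 (0.10), with 43 and 23, 42 and 25, and 40 and 24 counts. Nearest to Mir135a-2 were Mir181a-2 (0.08), Mir181b-1 (0.30) and Mir3061 (0.33), of which Mir181a-2 had 59 and 32 counts. With so few counts many genes lie close to the Mir135a genes, and the order of the nearest may change with counting error.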

How the data were processed

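Short RNA of the left cerebral cortex of 2 mice was sequenced as microRNA-seq, with 1 library a mouse. The deposited values are read counts per microRNA gene, made by the authors on the mm10 assembly with the GENCODE M21 annotation, per the submitters' README notes. Which aligner and counter were run, and how adapters were trimmed, is not given in the sources used here. No header names the columns, and the second of the 3 count columns was read as the gene's own strand, because most assigned reads stand there. Reads that were unmapped, at several places or in no gene stayed out of library sizes and tests.

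From these counts, CPM was computed over the sense total of each library (1930234 and 1863876). TMM factors (0.983 and 1.02) came from edgeR 4.0.16. A two-sided exact binomial test (SciPy 1.17.1) compared each gene's pair of counts with the TMM library sizes over the 324 genes whose mean level was at least 10 CPM. P-values were adjusted by Benjamini-Hochberg over all 324. A gene was called apart at an adjusted p under 0.05 and at least 2-fold. Intervals are 95% Clopper-Pearson intervals, and a count of 0 was taken to allow 3 counts. With a single group, no quasi-likelihood test between groups exists.

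Named were the 3 Mir135 genes, microRNA genes within 100 kb of them, 5 serotonin-linked genes, genes sharing a seed, and the 3 nearest genes to each member by Euclidean distance in log2(CPM + 1). A list of cell type markers served to check the tissue label. The members and lists were chosen with earlier results of these data known. Alternatives were total counts, DESeq2 1.42.0 size factors, the unstranded column, other filters on low counts, removal of a GC trend, other window lengths and leaving out a mouse. Sequences are RefSeq's on GRCm38.p6, and the 3 RefSeq hairpins were identical to those of M21. No genome sequence was used here.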

Additional observations from a re-analysis of the deposited data

How the results depend on the processing

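The log2 ratio of Mir135b stayed between 2.05 and 2.12 over 7 settings and was called apart in each. That of Mir135a-1 ran from −0.94 to −0.79 over 6 settings, never past 2-fold, with an adjusted p between 0.0147 and 0.0793 by the exact test. Mir135a-2 ran from −1.32 to −0.86, past 2-fold only with the GC trend removed (−1.32), and the cause was not tested. For each gene all settings use the same pair of counts, so these ranges show only the effect of scaling, filter and GC correction. A filter of 100 CPM or more on average drops both Mir135a genes and leaves 207 genes. Of these, 36 were called apart (27 higher in mouse 2 and 9 in mouse 1), against 63 of 324 (46 and 17) at 10 CPM. Scaled to all reads in the table, unmapped ones included, rather than to the sense total, the mean levels were 4.95 for Mir135a-1, 7.02 for Mir135a-2 and 41.5 for Mir135b, so that a limit of 10 on that scale left 1 of 3 genes detected. Reads at several places, and for the Mir135a genes counts of 62 or fewer, limit the levels. Leaving out a mouse gave 12.9 to 22.3 CPM for Mir135a-1, 17.7 to 32.1 for Mir135a-2 and 53.4 to 230 for Mir135b. No paired analysis was possible because there is 1 group.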

Other observations

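The Mir135a genes belong to a class in which 1 arm is shared and the other is not. Of the 1018 genes with a mature sequence in RefSeq, 57 shared some but not all of their listed mature sequences with another gene. Of these, 34 were detected (59.6%), with a median of 24.9 CPM. Mir135a-2 was the middle gene of the 57 (rank 29) and Mir135a-1 had rank 33. Of the 35 genes that shared every listed mature sequence, 5 were detected (14.3%), and of the 926 that shared none, 237 were (25.6%).

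Gene pairs with an identical mature sequence and both genes tested numbered 19, a comparison chosen after the values of the Mir135a genes were seen. The log2 ratios of Mir135a-1 and Mir135a-2 lay 0.07 apart, although the genes are on chromosomes 9 and 10. Only Mir16-1 and Mir16-2 lay closer, at 0.04. The median over the 19 pairs was 0.53, the widest was 1.30 for Mir181a-1 and Mir181a-2, and 11 of the 19 pairs had both genes on the same side of 0. The pairs share genes in places, and the counting intervals of the Mir135a ratios are much wider than the distance between them, so this is a description with no test.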
